A study of Mus musculus with 12 samples.

Results

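The immunoglobulin constant genes encode the parts of an antibody that do not bind the antigen, and 10 genes of antibody production were described here in bone marrow progenitors of 4 genotypes of mice. They are *Ighm*, *Ighd*, *Ighg3*, *Ighg1*, *Ighg2b*, *Ighg2c*, and *Igha* of the heavy chain locus, *Igkc* and *Iglc1* of the light chain loci, and *Jchain*. These 10 of the 55291 genes in the count matrix were taken by name, and all 10 passed the filter on low counts that left 15825 genes for testing. *Ighg2b* was chosen for its rise in *Asxl1Y588XTg* cells over WT cells, so the values of that contrast, and which genes passed the call threshold in it, are a description and not evidence of the rise.

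Antibodies are made by B lymphocytes and, in quantity, by plasma cells, the secreting cells that B lymphocytes become and that persist in bone marrow. A naive B cell uses *Ighm* and *Ighd* for its heavy chain, and class switching later joins the same variable segment to *Ighg3*, *Ighg1*, *Ighg2b*, *Ighg2c*, or *Igha*, which lie in that order in the locus. Each heavy chain pairs with a kappa chain (*Igkc*) or a lambda chain (*Iglc1* and its relatives), and the J chain (*Jchain*) joins IgA into dimers and IgM into pentamers. A constant gene can also be transcribed without a rearranged variable segment before a switch, and gene counts do not separate such transcripts from those of a switched cell.

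RNA was sequenced from Lin-cKit+ (LK) cells, a progenitor fraction of bone marrow obtained with magnetic beads by depletion of mature lineages followed by selection for the receptor cKit. There were 12 libraries, 1 a mouse, from 3 mice of each genotype, all 12 months old. The study asked whether loss of 1 copy of *Kdm6b*, which encodes a histone H3K27 demethylase, alters gene expression in progenitors that express a truncated ASXL1 protein. All mice are labeled C57BL/6. WT mice carried neither change. *Kdm6bΔ/+* mice had 1 allele of *Kdm6b* deleted by *Mx1Cre*, a recombinase transgene that responds to interferon and was induced with pI:pC. *Asxl1Y588XTg* mice carried a transgene for the truncated ASXL1 and were preleukemic at this age, and *Asxl1Y588XTg Kdm6bΔ/+* mice carried both changes. *Mx1Cre* acts in many cell types besides blood progenitors. The promoter of the *Asxl1* transgene, and whether WT and *Asxl1Y588XTg* mice received pI:pC, were not given in the sources used here.

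Each library held between 14451522 and 23482563 reads on genes, with a median of 17125384.5. *Kit*, which encodes cKit, was at 327.9 to 441 CPM (counts scaled to library size), but *S100a9*, a gene of maturing neutrophils, was at 13090 to 19950 CPM in the same fraction. *Kdm6b* was at 106 to 135 CPM in WT against 76.6 to 92.3 in *Kdm6bΔ/+*, and at 124 to 131 in *Asxl1Y588XTg* against 93.8 to 109 in *Asxl1Y588XTg Kdm6bΔ/+*. Y-linked transcripts were present in 0 of 3 WT libraries, 2 of 3 *Kdm6bΔ/+* libraries, 1 of 3 *Asxl1Y588XTg* libraries, and 3 of 3 *Asxl1Y588XTg Kdm6bΔ/+* libraries, so the sex of the mice was not balanced over the genotypes. Values below are normalized counts, reads scaled to a common library size, unless another unit is named. In such bulk samples a lower value can reflect fewer cells of a type or less RNA per cell, and these cannot be told apart.

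The 7 heavy chain genes lie on the minus strand of chromosome 12 (mm10). *Ighm* covers chr12:113418558-113422730, *Ighd* chr12:113406604-113416324, *Ighg3* chr12:113356224-113361232, *Ighg1* chr12:113325240-113330523, *Ighg2b* chr12:113302965-113307933, *Ighg2c* chr12:113285325-113288932, and *Igha* chr12:113254830-113260236. *Igkc* covers chr6:70726435-70726966 on the plus strand, *Iglc1* chr16:19061618-19062071 and *Jchain* chr5:88519809-88527891, both on the minus strand. The 4 IgG genes are close copies, so it mattered whether 50-base reads could tell them apart. Over the coding sequence *Ighg2b* matched *Ighg2c* at 85.7% of aligned positions, *Ighg3* at 75.5%, *Ighg1* at 74.8%, and *Igha* at 50.4%. Even so, 4.15% of the 50-base windows of *Ighg2b* and 5.49% of those of *Ighg2c* occur in another gene, against 1.58% for *Ighg3* and 0.393% for *Ighg1*.

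The hinge, the flexible link between the antigen-binding arms and the stem, is encoded by exon 2 and is printed for the 4 IgG genes in the sense direction, because it is the exon in which *Ighg2b* and *Ighg2c* differ most. Capitals mark bases that differ from *Ighg2b* in the alignment, or, in the *Ighg2b* line, bases that differ from *Ighg2c*.
Ighg2b (chr12:113307261-113307326): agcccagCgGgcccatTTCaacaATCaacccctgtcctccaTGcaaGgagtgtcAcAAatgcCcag
Ighg2c (chr12:113288263-113288325): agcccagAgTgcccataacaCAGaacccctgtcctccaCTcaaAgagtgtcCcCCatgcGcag
Ighg1 (chr12:113329844-113329882): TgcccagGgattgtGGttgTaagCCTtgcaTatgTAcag
Ighg3 (chr12:113360529-113360576): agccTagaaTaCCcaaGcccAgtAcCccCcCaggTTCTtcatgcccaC
The hinge of *Ighg2b* has 66 bases and those of *Ighg2c*, *Ighg1*, and *Ighg3* have 63, 39, and 48 bases. The *Ighg2b* and *Ighg2c* hinges are identical at 77.3% of aligned positions, whereas the next exon, which encodes the CH2 domain, is identical at 94.2%.

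*Ighg2b*, which encodes the heavy chain of IgG2b, was highest in *Asxl1Y588XTg* cells. WT libraries held 493, 760.3, and 597 normalized counts, and *Asxl1Y588XTg* libraries held 5163, 4158, and 2792. Counts were 1005, 753, and 932 in *Kdm6bΔ/+* cells and 457, 1179.9, and 854 in *Asxl1Y588XTg Kdm6bΔ/+* cells. The lowest *Asxl1Y588XTg* library thus stood above the highest of the 9 others. Means were 617 ± 135 (SD, n = 3) in WT, 830.5 ± 362 in *Asxl1Y588XTg Kdm6bΔ/+*, 897 ± 130.1 in *Kdm6bΔ/+*, and 4038 ± 1190.1 in *Asxl1Y588XTg*. The 3 lower genotypes overlapped one another. The fitted difference of *Asxl1Y588XTg* from WT was 2.71 on the log2 scale (SE 0.26), or 6.54-fold, and was between 2.49 and 2.92 with any 1 library left out. The *Asxl1Y588XTg* library with Y-linked transcripts, at 4158, lay between those without them, and the part of sex was not tested. Per length, the level was 85.8 ± 25.3 CPM per kb of exon in *Asxl1Y588XTg* against 13.1 ± 2.86 in WT.

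*Ighg2c*, which encodes IgG2c, the C57BL/6 counterpart of IgG2a, had the pattern most like it among the heavy chain genes. Its counts were 565, 401, and 547 in WT cells and 1162, 2532, and 2486 in *Asxl1Y588XTg* cells. They were 1159.9, 1020.3, and 489 in *Kdm6bΔ/+* cells and 126, 439, and 664 in *Asxl1Y588XTg Kdm6bΔ/+* cells. The lowest *Asxl1Y588XTg* library was therefore level with the highest *Kdm6bΔ/+* library. The difference of *Asxl1Y588XTg* from WT was 2.03 on the log2 scale (SE 0.33), 4.07-fold. Leaving out any 1 WT library, or replicate 2 or 3 of *Asxl1Y588XTg*, moved it below the call threshold, with differences of 1.86 to 2.11. So did all 4 genotypes in 1 fit, no filter, a minimum mean count of 50, the replicate block, and the term for Y-linked transcripts, 10 of 14 alternatives in all. Over the 12 libraries log2 CPM of *Ighg2b* and *Ighg2c* had a Pearson r of 0.751, and of 0.279 after the genotype means were taken off. The libraries share depth and the 2 genes share some sequence, and no test was made of this.

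*Ighg1* and *Ighg3* did not separate the genotypes. *Ighg1*, the IgG1 heavy chain gene, was at 1953, 40.3, and 430.5 in *Asxl1Y588XTg* cells, against 85.1, 51.3, and 139 in WT cells. One *Asxl1Y588XTg* library, replicate 1, thus set the group mean of 808 ± 1010.4, and another *Asxl1Y588XTg* library was below every WT library. *Ighg1* was at 71.6, 274, and 193 in *Kdm6bΔ/+* cells and 33.2, 148, and 97.0 in *Asxl1Y588XTg Kdm6bΔ/+* cells. *Ighg3*, the IgG3 heavy chain gene, was low in all libraries, from 0.915 to 172 in WT, from 45.2 to 93.4 in *Kdm6bΔ/+*, from 12.1 to 109.7 in *Asxl1Y588XTg*, and from 3.69 to 80.5 in *Asxl1Y588XTg Kdm6bΔ/+*. The genotypes overlapped for *Ighg3*, and its WT value of 0.915 came from a single read.

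**Figure D1:**
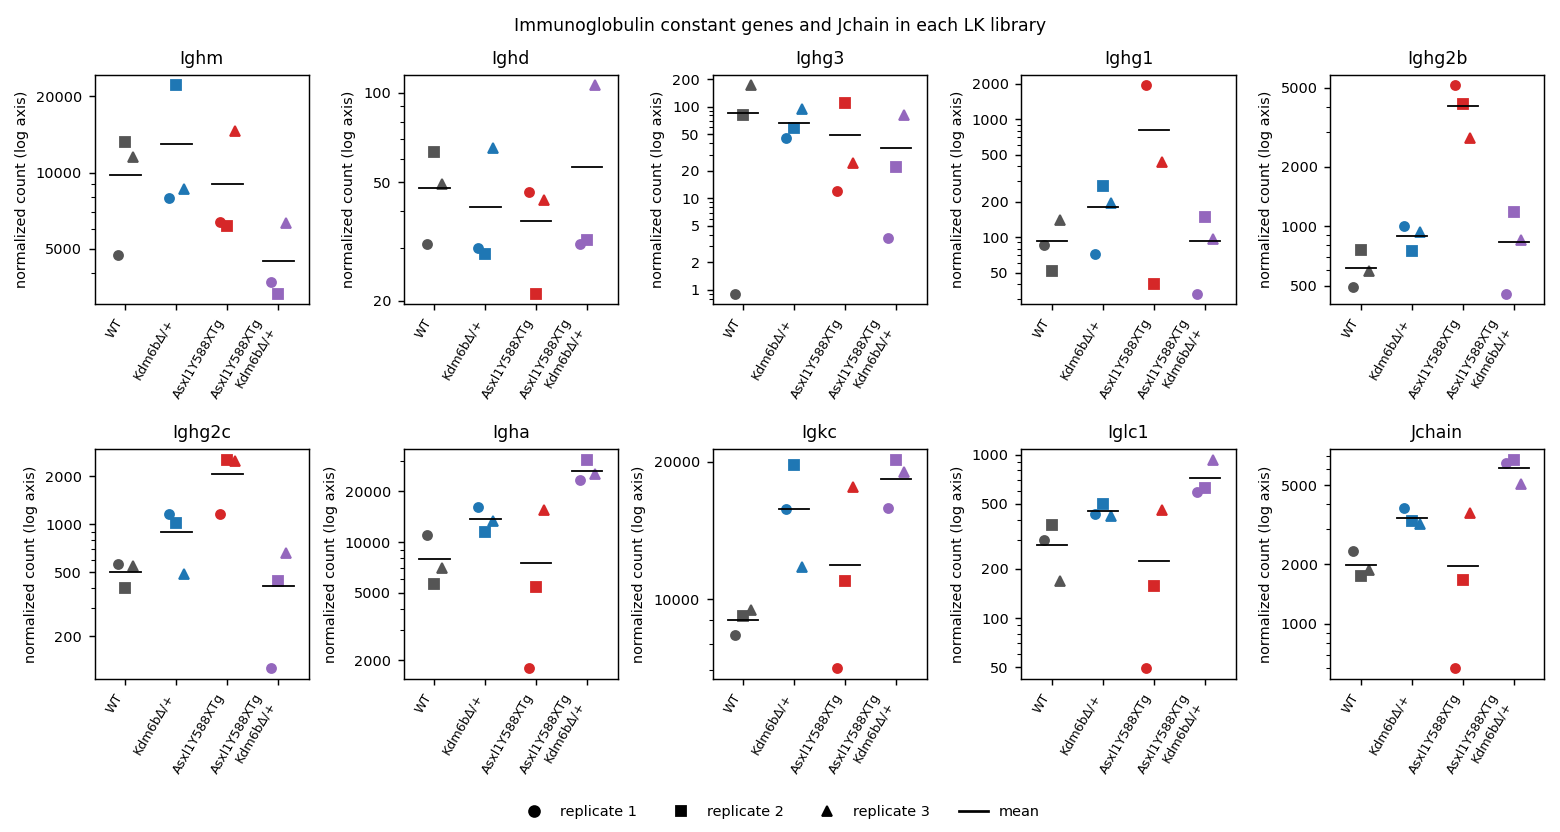
Normalized counts (log axes, one scale per panel) of the 10 genes in each of the 12 LK libraries by genotype. Each point is a mouse, with its shape giving the replicate number, and bars are means of 3. *Ighg2b* sits between 2792 and 5163 in *Asxl1Y588XTg* and at or below 1179.9 elsewhere, whereas *Igha*, *Iglc1*, and *Jchain* are highest in *Asxl1Y588XTg Kdm6bΔ/+*.

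The rise of *Ighg2b* with the transgene was looked for in libraries that had no part in choosing the gene, by comparing *Asxl1Y588XTg Kdm6bΔ/+* with *Kdm6bΔ/+*. Both genotypes carried the *Kdm6b* deletion, so this was not a repeat of the contrast with WT. The paper reports that a large part of the genes raised in *Asxl1Y588XTg* cells were back at WT level in *Asxl1Y588XTg Kdm6bΔ/+* cells. No difference in *Ighg2b* was detected. The log2 difference was -0.11 (SE 0.39), with a 95% confidence interval from -1.15 to 0.92 and an adjusted p of 0.935 in edgeR's quasi-likelihood test. The 3 *Asxl1Y588XTg Kdm6bΔ/+* values lay on both sides of the *Kdm6bΔ/+* values, with 1 above all of them, 1 among them, and 1 below. Leaving out *Asxl1Y588XTg Kdm6bΔ/+* replicate 1 turned the difference to 0.19. *Ighg2c*, *Ighg1*, and *Ighg3* differed by -1.13 (SE 0.73), -0.98 (SE 0.74), and -0.94 (SE 0.98) in this comparison, and none was called. The difference between *Asxl1Y588XTg Kdm6bΔ/+* and *Kdm6bΔ/+*, less the difference between *Asxl1Y588XTg* and WT (the interaction), was -2.83 (SE 0.50) for *Ighg2b* and -3.16 (SE 0.83) for *Ighg2c*. Neither was called in the fit of all 12 libraries, where 0.0126% of all genes were called, all lower. DESeq2 called both, and these values include the libraries that *Ighg2b* was chosen on.

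*Ighm* and *Ighd* encode the heavy chains of IgM and IgD, the classes of B cells that have not switched. *Ighm* was at 4710 in WT replicate 1 and at 13216 and 11533 in the other WT libraries. *Kdm6bΔ/+* libraries held 7970, 22170, and 8601 normalized counts, and *Asxl1Y588XTg* libraries held 6393, 6134, and 14589. *Asxl1Y588XTg Kdm6bΔ/+* libraries, at 3702, 3330, and 6346, were all below every *Kdm6bΔ/+* library. That difference was -1.53 (SE 0.57) with an adjusted p of 0.415 in edgeR and was not called. *Ighd* was at 21.1 to 106 counts in all 12 libraries and its genotypes overlapped. Raw *Ighm* reads exceeded *Ighd* reads between 59.7-fold and 771-fold within a library.

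*Igha*, the IgA heavy chain gene, and *Jchain* moved together. *Igha* was at 11072, 5666, and 6987 in WT cells, 16169, 11439, and 13409 in *Kdm6bΔ/+* cells, and 1790, 5409, and 15403 in *Asxl1Y588XTg* cells. *Asxl1Y588XTg Kdm6bΔ/+* cells held 23412, 30763, and 25373, more than every other library. *Jchain* was at 2328, 1750, and 1867 in WT, 3829, 3289, and 3182 in *Kdm6bΔ/+*, 598, 1654, and 3603 in *Asxl1Y588XTg*, and 6461, 6721, and 5053 in *Asxl1Y588XTg Kdm6bΔ/+*. *Jchain* was thus higher in every *Kdm6bΔ/+* library than in every WT library, and higher still in every *Asxl1Y588XTg Kdm6bΔ/+* library. Within a library the ratio of raw *Igha* to *Jchain* reads stayed between 2.99 and 5.02, although *Igha* itself ranged from 1790 to 30763. Pearson r of their log2 CPM over the 12 libraries was 0.988, and 0.97 after genotype means were taken off. *Asxl1Y588XTg* replicate 1, the library with the most *Ighg2b* and *Ighg1*, had the least *Igha* and *Jchain*.

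*Jchain* was the only one of the 10 genes called between *Kdm6bΔ/+* and WT, where 0.0948% of all genes were called, 0.0758% higher and 0.019% lower. It rose by 0.79 on the log2 scale (SE 0.11), 1.73-fold, with an adjusted p of 0.0202 in edgeR's quasi-likelihood test. The *Kdm6bΔ/+* library without Y-linked transcripts, like the WT libraries, held 3289 counts, above the 2328 of the highest WT library. This is a single library, and the part of sex in the *Jchain* difference was not tested. The call was lost with all 4 genotypes in 1 fit (adjusted p = 0.883), with a term for Y-linked transcripts added (adjusted p = 1), and without WT replicate 3 or *Kdm6bΔ/+* replicate 1 (adjusted p = 0.275 and 0.23). The difference itself stayed between 0.71 and 0.92 over the libraries left out. *Igha* was 0.79 higher (SE 0.27), *Igkc* 0.80 higher (SE 0.16), *Iglc1* 0.69 higher (SE 0.24), *Ighg2c* 0.82 higher (SE 0.33), and *Ighg2b* 0.54 higher (SE 0.16) in *Kdm6bΔ/+*, and none of these passed. *Igkc*, at an adjusted p of 0.36, was the nearest of those tested to the threshold, and the adjusted p of *Igha*, *Iglc1*, and *Ighg2c* was 1 in each case. Including *Jchain*, 4 genes did not overlap between the genotypes, all higher in *Kdm6bΔ/+*. Of all genes, 8.93% did not overlap, 4.13% higher and 4.8% lower. The median log2 difference of the 10 genes was 0.74, beside -0.0032 over all genes tested. This comparison shares the WT libraries with the contrast that chose *Ighg2b*.

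Between *Asxl1Y588XTg Kdm6bΔ/+* and *Kdm6bΔ/+*, *Jchain* was again the only gene of the 10 that was called, where 0.0948% of all genes were called, 0.0569% higher and 0.0379% lower. It rose by 0.83 (SE 0.11), 1.77-fold, with an adjusted p of 0.0158 in edgeR's quasi-likelihood test. Among libraries with Y-linked transcripts alone, the 3 *Asxl1Y588XTg Kdm6bΔ/+* values of 5053 to 6721 were above the 2 *Kdm6bΔ/+* values of 3829 and 3182. The part of sex in this difference was not tested. *Igha* was 0.96 higher (SE 0.14, adjusted p = 0.0573) and *Iglc1* 0.66 higher (SE 0.17, adjusted p = 0.217), and both missed the threshold. *Igha*, *Iglc1*, and *Jchain* did not overlap between the genotypes, against 9.32% of all genes higher without overlap, and *Ighm* was lower without overlap, against 9.57%. Either way, 18.9% of all genes did not overlap. The *Jchain* call was lost with all 4 genotypes in 1 fit (adjusted p = 0.699), with the term for Y-linked transcripts (adjusted p = 0.706), and without *Kdm6bΔ/+* replicate 3 or *Asxl1Y588XTg Kdm6bΔ/+* replicate 1 (adjusted p = 0.0868 and 0.126). *Igha* passed with DESeq2, with a minimum mean count of 50, and without 3 of the 6 libraries in turn. The 10 genes had a median log2 difference of 0.06, beside 0.0018 over all genes.

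**Figure D2:**
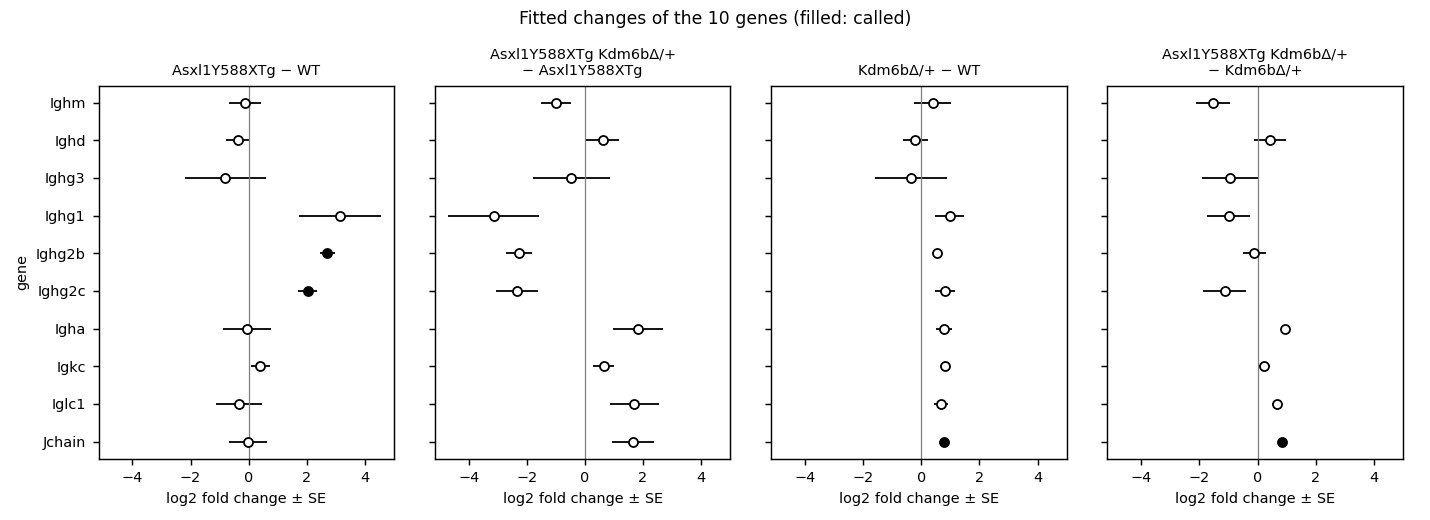
Fitted log2 fold changes of the 10 genes in 4 comparisons, with SE as bars. Filled points passed an adjusted p of 0.05 and a 1.5-fold change: *Ighg2b* (2.71) and *Ighg2c* (2.03) in the contrast that chose *Ighg2b*, and *Jchain* in both comparisons with *Kdm6bΔ/+* (0.79 and 0.83).

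In the contrast of *Asxl1Y588XTg* with WT, 2 of the 10 genes, *Ighg2b* and *Ighg2c*, were called higher and 0 lower, with 1.61% of all genes called, 1.58% higher and 0.0316% lower. The same 2 genes did not overlap between the genotypes, beside 10.5% of all genes higher without overlap and 5.21% lower (15.7% either way). Since *Ighg2b* was chosen on this contrast, these counts are a description. The other 8 genes ranged from -0.80 for *Ighg3* to 3.14 for *Ighg1*, whose SE was 1.40. The median of the 10 was -0.05, beside -0.01 over all genes.

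Between *Asxl1Y588XTg Kdm6bΔ/+* and *Asxl1Y588XTg*, edgeR called 0 of the 10 genes, where 1.74% of all genes were called, 0.145% higher and 1.59% lower. At an unadjusted p under 0.05 there were 2, *Ighg2b* and *Ighg2c*, beside 2444 of the 15825 genes tested, and DESeq2 called these 2 lower, beside 391 of all genes. *Ighg2b* was 2.27 lower (SE 0.46; log2 difference -2.27) in *Asxl1Y588XTg Kdm6bΔ/+* and *Ighg2c* 2.33 lower (SE 0.73; log2 difference -2.33), and both had no overlap, against 14.1% of all genes lower without overlap. *Igha* was 1.83 higher (SE 0.86), *Iglc1* 1.70 higher (SE 0.83), and *Jchain* 1.65 higher (SE 0.71), also without overlap, against 7.11% of all genes (21.2% either way). This comparison shares the *Asxl1Y588XTg* libraries with the contrast above, so the 2 differences of *Ighg2b* are not independent. *Igha* differed widely among *Asxl1Y588XTg* mice, from 1790 to 15403, and the SE of its difference was the largest after those of *Ighg1* and *Ighg3*.

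*Igkc*, the kappa chain gene, was at 8361 to 9480 in WT, 11745 to 19704 in *Kdm6bΔ/+*, 7067 to 17561 in *Asxl1Y588XTg*, and 15869 to 20205 in *Asxl1Y588XTg Kdm6bΔ/+*. *Iglc1*, one of the lambda chain genes, was at 169 to 373 in WT, 420.5 to 502 in *Kdm6bΔ/+*, 49.3 to 459 in *Asxl1Y588XTg*, and 592 to 933 in *Asxl1Y588XTg Kdm6bΔ/+*. *Asxl1Y588XTg* replicate 1 was the lowest library for both. Kappa made up 95.5 ± 1.01% (SD, n = 3) of light chain constant reads in WT, 95.8 ± 0.17% in *Kdm6bΔ/+*, 97.6 ± 0.733% in *Asxl1Y588XTg*, and 95.4 ± 1.25% in *Asxl1Y588XTg Kdm6bΔ/+*. The ratio of light to heavy chain constant reads was between 0.437 and 0.621 in the 12 libraries, so the heavy and light chain reads rose and fell together. The counting strand is not stated, so *Igkc* reads cannot be told from those of the overlapping noncoding gene *Gm30211*, nor *Iglc1* reads from those of the antisense gene *2010309G21Rik*. Lambda genes outside the 10 were few in reads, with *Iglc2* at 43 to 315 and *Iglc3* at 10 to 94 raw reads a library, and *Iglc4* at 0.

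Shares within the heavy chain locus do not depend on how libraries are scaled. *Ighg2b* took 3.22 ± 0.471% (SD, n = 3) of heavy chain constant reads in WT, 3.28 ± 1.02% in *Kdm6bΔ/+*, 2.49 ± 0.82% in *Asxl1Y588XTg Kdm6bΔ/+*, and 20.6 ± 11.9% in *Asxl1Y588XTg*. Single *Asxl1Y588XTg* libraries ran from 7.81% (95% Wilson interval 7.53% to 8.09%) to 31.3% (30.6% to 32.0%), each above every other library. Such intervals cover counting error only. All 4 IgG genes together took 6.80 ± 0.439% in WT, 7.23 ± 1.37% in *Kdm6bΔ/+*, 4.09 ± 1.61% in *Asxl1Y588XTg Kdm6bΔ/+*, and 34.5 ± 17.2% in *Asxl1Y588XTg*. *Igha* took 42.7 ± 19.8% in WT, 49.8 ± 15.6% in *Kdm6bΔ/+*, and 27.8 ± 16.2% in *Asxl1Y588XTg*, which overlapped. In *Asxl1Y588XTg Kdm6bΔ/+* its share was 81.9 ± 5.41%, and *Ighm* took 13.8 ± 4.85%, against 50.2 ± 19.8% in WT. Among IgG reads alone *Ighg2b* led in 9 of 12 libraries and *Ighg2c* in 3, and *Ighg2b* held 47.6 ± 9.71% in WT and 57.3 ± 7.45% in *Asxl1Y588XTg*, and these overlapped. *Ighe*, the IgE heavy chain gene, had at most 3 reads in a library. A library held 16420 to 37639 heavy chain reads.

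**Figure D3:**
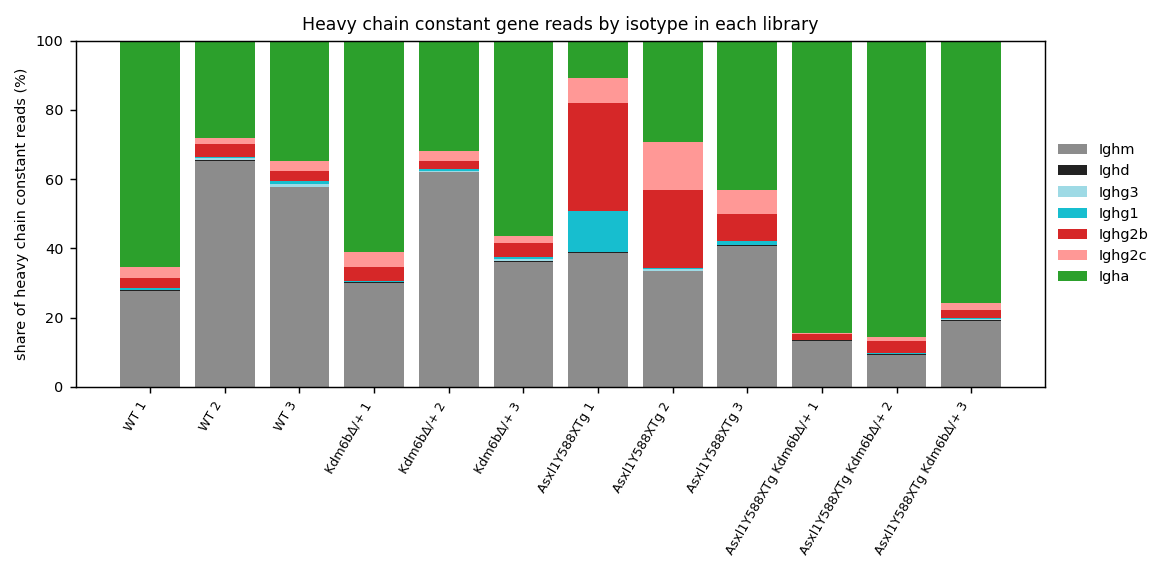
Share of heavy chain constant reads (percent, stacked to 100) taken by each of 7 genes in the 12 libraries. *Ighg2b* fills 7.81% to 31.3% of the *Asxl1Y588XTg* bars and at most 3.92% of the others, and *Igha* fills 75.7% to 85.7% of the *Asxl1Y588XTg Kdm6bΔ/+* bars.

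Per kilobase of exon, the genes kept wide distances. *Igkc* led in WT with 964 ± 62.4 CPM per kb (SD, n = 3), followed by *Ighm* with 296 ± 136 and *Igha* with 169 ± 60.1. *Jchain* (44.8 ± 6.92), *Iglc1* (35.1 ± 12.9), *Ighg2c* (21.6 ± 3.86), and *Ighg2b* (13.1 ± 2.86) came next, and *Ighg1*, *Ighg3*, and *Ighd* were near 2 or below (2.02 ± 0.971, 1.92 ± 1.94, and 1.43 ± 0.484). *Ighm* and *Igha* overlapped between mice, as did *Jchain* and *Iglc1*, *Iglc1* and *Ighg2c*, and the 3 lowest genes. In *Asxl1Y588XTg* cells *Ighg2b* and *Ighg2c* were at 85.8 ± 25.3 and 88.4 ± 33.4 CPM per kb. The exon lengths used were 2678 bases for *Ighg2b* and 1326 for *Ighg2c*, although their coding sequences have 1007 and 1004 bases. Not divided by length, *Ighg2b* and *Ighg2c* had means of 4038 and 2060 normalized counts in these cells, and 617 and 504 in WT. The order of these genes therefore depends on the length used. In *Asxl1Y588XTg Kdm6bΔ/+* cells *Igha* reached 565 ± 81.1 and passed *Ighm*, at 134.5 ± 49.6.

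The variable segments, which the constant genes are spliced to in a finished transcript, were read next. Of 183 *Ighv* genes in the matrix, 77 to 131 had a read in a given library, and of 160 *Igkv* genes, 66 to 95. *Igkv14-126* led the kappa locus in all 6 WT and *Kdm6bΔ/+* libraries, with 8.81% to 39.1% of *Igkv* reads. *Iglv1* led the lambda locus in 12 of 12, with 56.1% to 92.9% of *Iglv* reads. *Ighv11-2* led the heavy locus in 2 WT libraries (18.4% and 14.2%), 2 *Kdm6bΔ/+* libraries (5.72% and 26.5%), and *Asxl1Y588XTg* replicate 3 (10.1%). *Ighv1-26*, *Ighv5-16*, *Ighv1-80*, *Ighv9-3*, and *Ighv5-17* led other libraries with 4.5% to 11.2%. The pairing of *Ighv11-2* with *Igkv14-126* is known from B-1 cells, a self-renewing B cell population, whose antibodies of this kind bind phosphatidylcholine. Exon 2 of both segments, which encodes most of the variable domain, is printed (for *Ighv11-2* its first 300 bases) because the reads of both followed *Ighm*. Capitals mark bases that lie in at least one 50-base window found in no other gene's transcript.
Ighv11-2 (chr12:114048248-114048547, minus strand): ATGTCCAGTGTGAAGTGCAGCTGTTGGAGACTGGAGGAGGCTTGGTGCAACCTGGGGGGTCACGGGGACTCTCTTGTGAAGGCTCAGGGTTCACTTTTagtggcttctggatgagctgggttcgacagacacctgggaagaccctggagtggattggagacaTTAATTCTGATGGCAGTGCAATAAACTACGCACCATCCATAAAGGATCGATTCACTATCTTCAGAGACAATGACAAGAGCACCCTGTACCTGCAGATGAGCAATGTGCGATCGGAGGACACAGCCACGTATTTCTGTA
Igkv14-126 (chr6:67896345-67896642, plus strand): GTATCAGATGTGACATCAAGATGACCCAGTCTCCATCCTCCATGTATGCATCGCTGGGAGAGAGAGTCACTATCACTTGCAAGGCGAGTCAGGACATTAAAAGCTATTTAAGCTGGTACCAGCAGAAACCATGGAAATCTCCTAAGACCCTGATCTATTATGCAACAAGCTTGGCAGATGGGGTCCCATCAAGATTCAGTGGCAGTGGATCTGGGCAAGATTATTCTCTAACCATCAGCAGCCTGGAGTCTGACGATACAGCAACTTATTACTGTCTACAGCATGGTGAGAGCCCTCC
A central stretch of 64 lower-case bases of *Ighv11-2* is shared with *Ighv11-1*, whereas the whole printed exon of *Igkv14-126* can be assigned.

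*Ighv11-2* was at 54.9, 473, and 363 normalized counts in WT, 227.5, 1209, and 176.5 in *Kdm6bΔ/+*, and 64.4, 101.6, and 450.7 in *Asxl1Y588XTg*. In *Asxl1Y588XTg Kdm6bΔ/+* it was at 12.5, 2, and 76.3, below every *Kdm6bΔ/+* library. *Igkv14-126* ran parallel, at 245, 999.6, and 818 in WT, 528, 2846, and 485 in *Kdm6bΔ/+*, 145, 287, and 955 in *Asxl1Y588XTg*, and 56.1 and 154 in 2 *Asxl1Y588XTg Kdm6bΔ/+* libraries, with 8 reads in the other. Pearson r of their log2 CPM over 12 libraries was 0.989, and that of *Ighv11-2* with *Ighm* was 0.952, while with *Igha* it was -0.343. After the genotype means were taken off these were 0.976, 0.926, and 0.135, so the value with *Igha* changed sign. These pairs were chosen after their values were seen. Between *Asxl1Y588XTg Kdm6bΔ/+* and *Kdm6bΔ/+* the log2 difference was -4.22 (SE 1.43, adjusted p = 0.385) for *Ighv11-2* and -4.17 (SE 1.30, adjusted p = 0.361) for *Igkv14-126* in edgeR, and neither was called.

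In *Asxl1Y588XTg Kdm6bΔ/+* cells *Igkv10-96* led the kappa locus in 3 of 3 libraries, with 14.6%, 7.74%, and 9.82% of *Igkv* reads. Its counts of 675, 429, and 532 there overlapped the 454, 404.5, and 228 of *Kdm6bΔ/+* cells, and its r with *Jchain* was 0.897. The 3 *Asxl1Y588XTg* libraries had 3 different kappa leaders, *Igkv4-59*, *Igkv4-53*, and *Igkv12-89*, with 13.1%, 9.94%, and 18.2% of *Igkv* reads. *Igkv4-59* shares 74.3% of its 50-base windows with other *Igkv4* segments, so its reads may belong to a close copy. In *Asxl1Y588XTg* replicate 1, *Ighv9-1* took 42.6% of *Ighv* reads (95% Wilson interval 40.5% to 44.7%, 919 reads), against 5 to 81 reads in the other libraries. That library had an effective number of 5.16 *Ighv* segments, the inverse of the summed squared shares, where the 11 others had 11.3 to 45.3. The same library held 1953 counts of *Ighg1* and 5163 of *Ighg2b*, but the matrix does not tie a variable segment to a constant gene. Of 72 *Ighv*, 72 *Igkv*, and 3 *Iglv* segments tested, 3 were called higher in *Asxl1Y588XTg Kdm6bΔ/+* than *Asxl1Y588XTg* (*Igkv1-135*, *Igkv4-63*, and *Igkv4-70*), beside 0.145% of all genes. Against *Kdm6bΔ/+*, 1 was called higher in *Asxl1Y588XTg Kdm6bΔ/+* (*Ighv1-64*), beside 0.0569% of all genes, and 0 were called in the other 2 comparisons. These 4 were named after their values were seen. *Igkv4-70* had few raw reads, 34, 23, and 11 in *Asxl1Y588XTg Kdm6bΔ/+* and 0, 1, and 5 in *Asxl1Y588XTg* (adjusted p = 0.0497 in edgeR). *Igkv1-135*, for instance, was at 181, 309, and 227 in *Asxl1Y588XTg Kdm6bΔ/+* and 42.3, 77.5, and 78.0 in *Asxl1Y588XTg* (log2 difference 1.87, SE 0.27, adjusted p = 0.0161 in edgeR).

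**Figure D4:**
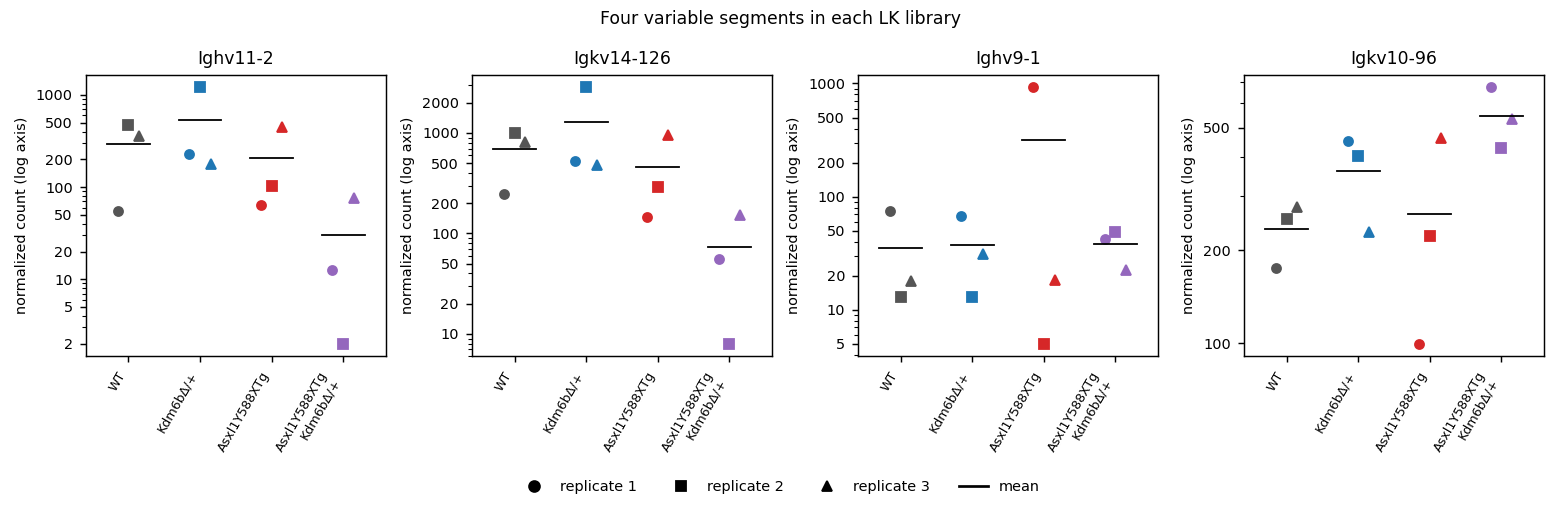
Normalized counts (log axes, one scale per panel) of 4 variable segments in the 12 LK libraries, each point a mouse and bars the means of 3. *Ighv11-2* and *Igkv14-126* are at or below 76.3 and 154 in *Asxl1Y588XTg Kdm6bΔ/+*, *Ighv9-1* stands out at 924.5 in 1 *Asxl1Y588XTg* library, and *Igkv10-96* is at 429 to 675 in *Asxl1Y588XTg Kdm6bΔ/+*.

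Other genes of B cells and plasma cells were read beside the constant genes. Of the 16 genes of a B cell list, all tested, 0 were called in any of the 4 pairwise comparisons, and the same held for 9 pro-B and pre-B cell genes. Of all genes, 0.0948% to 1.74% were called in them, so 0 is near that share. In *Kdm6bΔ/+* against WT, 2 of the 16 B cell genes were higher (median log2 difference -0.33). There, 3 were lower without overlap, beside 4.8% of all genes. In *Asxl1Y588XTg Kdm6bΔ/+* against *Kdm6bΔ/+*, 14 were higher (median 0.41), 3 of them without overlap, beside 9.32% of all genes. In *Asxl1Y588XTg* against WT, 4 were higher (median -0.31), and in *Asxl1Y588XTg Kdm6bΔ/+* against *Asxl1Y588XTg*, 12 were higher (median 0.42). *Cd79a*, a signaling subunit of the B cell receptor, had 112 to 448 raw reads, with all genotypes overlapping. *Cd79b*, the partner subunit, was the most abundant of the list at 17.9 to 36.1 CPM, and *Dntt*, which encodes terminal transferase, was the most abundant pro-B cell gene at 22.9 to 92.1 CPM. The summed level of the B cell list was 109.5 to 192 CPM in WT, 103.5 to 156 in *Kdm6bΔ/+*, 74.1 to 208 in *Asxl1Y588XTg*, and 114 to 229 in *Asxl1Y588XTg Kdm6bΔ/+*, and that of the pro-B and pre-B cell list was 89.7 to 193, 78.9 to 175, 41.3 to 157, and 102 to 221 CPM in the same order. Both sums overlapped between all genotypes. *Ms4a1*, which encodes CD20, had 146 raw reads in *Asxl1Y588XTg* replicate 1 and 7 to 50 elsewhere. Whether B cells or plasma cells in the LK fraction contributed to the values of the 10 genes was not tested.

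Of 16 plasma cell genes, 14 were tested. None was called between *Asxl1Y588XTg* and WT, between *Kdm6bΔ/+* and WT, or between *Asxl1Y588XTg Kdm6bΔ/+* and *Kdm6bΔ/+*. Of all genes, 1.61%, 0.0948%, and 0.0948% were called there. Between *Asxl1Y588XTg Kdm6bΔ/+* and *Asxl1Y588XTg*, 2 fell, *Fkbp11* by 0.89 (SE 0.16, adjusted p = 0.0253) and *Creld2* by 0.71 (SE 0.10, adjusted p = 0.0089), both chaperone-related genes of the endoplasmic reticulum. Of all genes, 1.59% were called lower there. With *Sdf2l1* and *Txndc5*, 4 of the list were lower without overlap, beside 14.1% of all genes. The untested genes of the list were near 0, with *Mzb1* at 0 to 11 raw reads and *Tnfrsf17*, which encodes BCMA, at 0 to 15, and both at 0 in WT replicate 1. Other genes of the list were higher, with genotype means of 113 to 157 normalized counts for *Irf4*, 103 to 145 for *Slamf7*, and 30.5 to 50.2 for *Derl3*. *Sdc1*, which encodes CD138, had 61 to 148 reads and differed by 0.17 (SE 0.18) on the log2 scale between *Asxl1Y588XTg Kdm6bΔ/+* and *Kdm6bΔ/+*, and *Xbp1*, a secretory regulator that many cells express, 2611 to 4193. The summed plasma cell list was 674 to 767 CPM in WT, 737 to 893 in *Kdm6bΔ/+*, 731 to 779 in *Asxl1Y588XTg*, and 618 to 673 in *Asxl1Y588XTg Kdm6bΔ/+*. Most of this sum came from secretory genes that many cells express, such as *Xbp1*, *Ssr4*, *Sdf2l1*, and *Txndc5*, with means of 178, 113, 91.3, and 92.0 CPM in *Asxl1Y588XTg Kdm6bΔ/+*. Receptors and surface proteins of the list had their highest mean in *Asxl1Y588XTg Kdm6bΔ/+*, *Tnfrsf13b* at 1004 ± 78.2 normalized counts against 697 ± 93.0 in WT, *Sdc1* at 102 ± 8.35 against 76.3 ± 19.2, *Slamf7* at 145 ± 44.6 against 129 ± 26.8, and *Tnfrsf17* at 9.77 ± 4.63 against 3.58 ± 4.45 (SD, n = 3). *Tnfrsf13b* did not overlap between *Asxl1Y588XTg Kdm6bΔ/+* and *Asxl1Y588XTg* (log2 difference 0.42, SE 0.08, adjusted p = 0.0332 in edgeR) but was under the 1.5-fold threshold, and *Sdc1*, *Slamf7*, and *Tnfrsf17* overlapped. *Tnfrsf13b* was at 979 ± 106 in *Kdm6bΔ/+*, and *Asxl1Y588XTg Kdm6bΔ/+* differed from that genotype by 0.04 (SE 0.09). Other genes of the list, *Prdm1*, *Xbp1*, *Fkbp11*, *Creld2*, *Sdf2l1*, *Txndc5*, and *Ssr4*, had their lowest mean in *Asxl1Y588XTg Kdm6bΔ/+*. These genes were named after their values were seen, and their part in the levels of *Igha* and *Jchain* was not tested. Of the other lists, *Gata2* among 10 LK progenitor genes was called lower in *Asxl1Y588XTg Kdm6bΔ/+* than *Asxl1Y588XTg* (log2 difference -1.02, SE 0.12, adjusted p = 0.00686) and higher in *Asxl1Y588XTg* than WT, and *Hba-a2* among 10 erythroid genes lower in *Kdm6bΔ/+* than WT (-1.44, SE 0.21, adjusted p = 0.0202). None of the tested genes was called in any of the 4 comparisons in the lists for germinal centers and class switching, other immunoglobulin constant genes, plasmacytoid dendritic cells, T and NK cells, neutrophils, or monocytes and macrophages, whose most abundant genes were *Bcl6*, *Iglc2*, *Irf8*, *Nkg7*, *S100a9*, and *Ly6c2*. Of all genes, 0.0948% to 1.74% were called in these 4 comparisons. The T and NK cell genes differed in the same directions as *Ighg2b* in their medians. Of 12 tested, 9 were higher in *Asxl1Y588XTg* than WT (median log2 difference 0.37). Of the tested genes, *Cd8a* and *Trac* were higher without overlap, beside 10.5% of all genes. In *Asxl1Y588XTg Kdm6bΔ/+* 2 were higher than in *Asxl1Y588XTg* (median -0.95), and 3 were lower without overlap, beside 14.1% of all genes. *Trac*, the T cell receptor alpha constant gene, had 35, 19, and 11 raw reads in *Asxl1Y588XTg* cells and 1 to 7 in the other 9 libraries. It and *Cd8a* were named after their values were seen. The summed T and NK cell list, most of it *Nkg7*, was 216 to 227 CPM in WT, 207 to 272 in *Kdm6bΔ/+*, 196 to 244 in *Asxl1Y588XTg*, and 182 to 221 in *Asxl1Y588XTg Kdm6bΔ/+*, and between 0 and 4 of its genes had no read in a library. Pro-B and pre-B cell genes differed in the opposite directions, with 0 of 9 higher in *Asxl1Y588XTg* than WT (median -0.81) and 9 of 9 higher in *Asxl1Y588XTg Kdm6bΔ/+* than *Asxl1Y588XTg* (median 0.78), none without overlap. The part of these cells in the *Ighg2b* values was not tested.

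**Figure D5:**
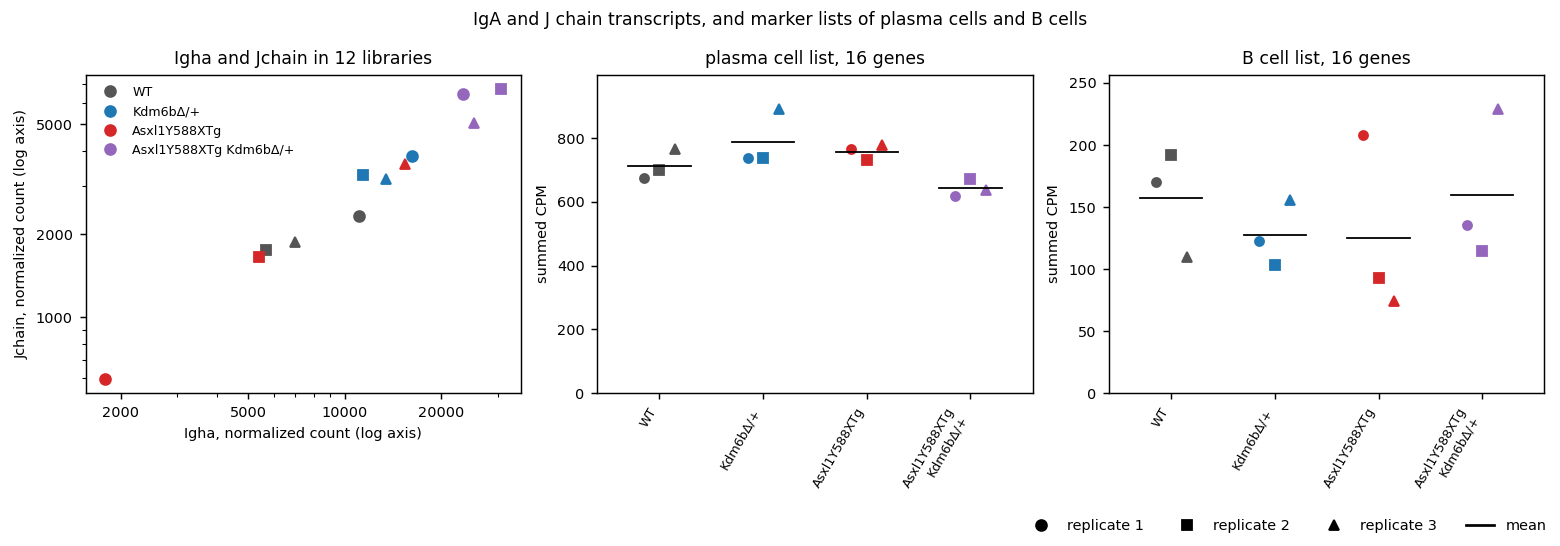
Left, *Jchain* against *Igha* in normalized counts (log axes) for 12 libraries colored by genotype. Middle and right, summed CPM of 16 plasma cell genes and 16 B cell genes, each point a mouse and bars the means of 3: *Asxl1Y588XTg Kdm6bΔ/+* is highest for *Igha* and *Jchain*, and its plasma cell sum, most of which comes from widely expressed secretory genes, is 618 to 673 CPM.

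Outside the immunoglobulin genes, those whose log2 CPM followed *Ighg2b* most closely over the 12 libraries were *Muc13* (Pearson r 0.953), *Scarf1* (0.948), *Plod1* (0.935), *Tmem176a* (0.932), and *Large2* (0.929). After the genotype means were taken off, a different set led, *Capzb* (0.939), *Sla* (0.93), *Camkmt* (0.912), *Frg1* (0.908), and *Sem1* (0.896). The libraries share genotype and depth, and the genes were picked as the highest of 15825, so these values are descriptions.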

How the data were processed

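RNA sequencing of LK cells from 12 mice (3 a genotype) was analyzed from the raw counts of 55291 genes, as the authors deposited them. The authors trimmed reads with Trimmomatic, aligned them to mm10 with STAR, and counted them on genes with HTSeq. These counts are whole numbers without normalization. The gene annotation and the strand setting were not given in the sources used here, and library kit and sequencer differ between the sample labels and the paper's methods.

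edgeR 4.0.16 in R 4.3.3 was used for tests (robust quasi-likelihood test, TMM scaling, 6 libraries a comparison, 12 for the interaction). Filtering by filterByExpr left 15825 genes, over which Benjamini-Hochberg adjustment was made, and a gene was called at an adjusted p under 0.05 and a change above 1.5-fold. SEs came from the F statistic. For normalized counts, each count was set to the mean library size by the TMM-scaled size of its library. CPM per kb used the exon length of GENCODE vM21, which also gave positions and sequences of mm10. Replicates are separate mice. On simulated counts of 15825 genes, the edgeR test of *Asxl1Y588XTg* against WT called 95.5% of genes changed 4-fold and 77.6% of those changed 2-fold.

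The genes and lists were chosen with earlier results of these data known. Lists of B cell, pro-B and pre-B cell, plasma cell, germinal center and class switching, other immunoglobulin constant, plasmacytoid dendritic cell, T and NK cell, neutrophil, monocyte and macrophage, erythroid, and LK progenitor genes were written from general knowledge. Named genes are all 10 genes, listed genes called in a comparison or highest in CPM, B cell and plasma cell markers (some are not reported here) and *Kit*, the leading variable segment of each library, and the 5 genes most like *Ighg2b*. Alignments used biopython 1.88 in python 3.11.15. Alternatives were DESeq2 1.42.0, all 4 genotypes in 1 fit, RLE scaling, no filter, only genes with a mean of 50 or more counts, a block for the replicate number, scaling without immunoglobulin genes, a term for Y-linked transcripts, and each library left out. Library pairs of 1 genotype differed beyond counting noise, with a chi-square per gene from 7.40 to 30.8, where noise alone gives 1.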

Additional observations from a re-analysis of the deposited data

How the results depend on the processing

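Depth limits *Ighg3* and *Ighd* most, at 1 to 161 and 21 to 103 raw reads a library, and 3 mice a genotype limit every test. *Ighg2b* was chosen on the contrast of *Asxl1Y588XTg* with WT, and its log2 difference there ran from 2.49 to 2.92 over 14 alternatives on the same libraries, which is no independent support. Genes of the 10 called higher in *Asxl1Y588XTg* than WT numbered 2, and 1 with all 4 genotypes in 1 fit, without the filter, with a mean count of at least 50, with the replicate block, and with the term for Y-linked transcripts, and 1 to 2 over libraries left out. Those called lower in *Asxl1Y588XTg Kdm6bΔ/+* than *Asxl1Y588XTg* numbered 0, and 2 with DESeq2 and 1 with all 4 genotypes in 1 fit or with the block. Those called higher in *Kdm6bΔ/+* than WT numbered 1, and 2 with DESeq2, 0 with all 4 genotypes in 1 fit, 3 without the filter, 2 with the block, 0 with the Y-linked term, and 0 to 3 over libraries left out. Those called higher in *Asxl1Y588XTg Kdm6bΔ/+* than *Kdm6bΔ/+* numbered 1, and 3 with DESeq2, 0 with all 4 genotypes in 1 fit, 3 without the filter, 2 with a mean count of at least 50, 0 with the Y-linked term, and 0 to 2 over libraries left out. In the interaction 0 were called, but 2 lower with DESeq2 and 3 higher and 4 lower without the filter. Without the filter the prior degrees of freedom were infinite for 89% to 100% of genes, so most genes' own spread did not enter those tests. The cause of the other changes was not tested.

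Replicate numbers did not pair the libraries: over 18 pairs with the same number the deviations from genotype means had a median r of -0.042 (-0.116 to 0.078), beside 0.008 over 36 other pairs. The Y-linked term left the *Jchain* difference at 0.88 for *Kdm6bΔ/+* against WT and 0.86 for *Asxl1Y588XTg Kdm6bΔ/+* against *Kdm6bΔ/+*. Over all genes the counts moved as well, to between 96 (replicate block) and 585 (no filter) called higher in *Asxl1Y588XTg* than WT and to 43 (Y-linked term) and 665 (no filter) lower in *Asxl1Y588XTg Kdm6bΔ/+* than *Asxl1Y588XTg*, where 250 and 252 were called here.

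Differences that changed sign were not called. In *Asxl1Y588XTg* against WT these were *Ighm* at 0.21 and *Jchain* at 0.013 with the Y-linked term, and over libraries left out *Ighm* (-0.65 to 0.16), *Ighg3* (-2.20 to 0.27), *Igha* (-1.14 to 0.40), *Igkc* (-0.0021 to 0.66), *Iglc1* (-1.43 to 0.14), and *Jchain* (-0.82 to 0.41). In *Asxl1Y588XTg Kdm6bΔ/+* against *Asxl1Y588XTg* they were *Ighd* (-0.22 to 0.92) and *Ighg3* (-1.96 to 0.93), and in *Kdm6bΔ/+* against WT *Ighm* (-0.24 to 0.68), *Ighd* (-0.68 to 0.0573), and *Ighg3* (-0.94 to 0.73, and 0.32 with the replicate block). In *Asxl1Y588XTg Kdm6bΔ/+* against *Kdm6bΔ/+* they were *Ighd* (-0.40 to 0.93) and *Ighg2b* (-0.45 to 0.19). In the interaction they were *Ighd* (-0.0199 to 1.32), *Igkc* (-0.44 to 0.22), and *Ighg3* (-1.61 to 1.27, and 0.17 with the Y-linked term).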
